A study of Mus musculus with 9 samples.

Results

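Embryoid bodies are aggregates in which mouse embryonic stem cells (ESCs) differentiate into a mixture of embryonic tissues, and 5 of the 9 arrays of this series held RNA of such aggregates. Described here is how the 2 arrays labelled EB7 and EB9 differed from the 3 labelled EB1, EB3 and EB5. The split was chosen from the values themselves, because these 5 arrays fell into those sets across genes, so every difference between them is a description of the 5 arrays and no test of it is given. The 4 ESC arrays, labelled 2, 6, 8 and 10, gave a reference level, and the difference between arrays 8 and 10 and arrays 2 and 6, called the ESC difference below, is given beside embryoid body differences of which it was a large part on the same side.

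All 9 samples came from the E14 ESC line without treatment. Total RNA was purified on RNeasy columns, biotin labelled and hybridized to Affymetrix mouse expression arrays. The labels give the embryoid bodies no age, and nothing in them separates EB7 and EB9 from EB1, EB3 and EB5 except the number in the title. The study's methods name biological replicates of E14 ESCs, and no source used here says so of the embryoid body arrays, so the spread within a set may be technical, and a difference in culture, collection or array handling between the sets cannot be told apart from one in the tissues formed.

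Embryoid bodies follow the order of the early embryo: epiblast-like cells pass through a primitive streak stage and give mesoderm, endoderm and ectoderm. The first blood to form is primitive erythroid blood, which carries embryonic globins, while ectoderm gives neural progenitors and then neurons. Retinoic acid, a vitamin A derivative that acts through nuclear receptors, is known to favour neural differentiation and to turn on the anterior Hox genes. In bulk RNA, fewer cells of a type and less RNA per cell cannot be told apart.

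Levels are given as log2 of the deposited GCRMA value, a background-corrected and normalized intensity, and differences as the mean of EB7 and EB9 minus the mean of EB1, EB3 and EB5 on that scale. Each of 18193 genes was read from 1 probe set, the brightest on average across the embryoid body arrays, and a gene was called higher or lower when both EB7 and EB9 lay outside the range of EB1, EB3 and EB5. By that rule 17.3% of all genes were higher and 9.79% lower in EB7 and EB9, shares that include many differences near 0. The counts of each gene list below are to be read beside these shares. With a difference of at least 1 as well, 48 genes (0.264%) were higher and 41 (0.225%) lower. The median difference over all genes was 0.02, and the percentiles 5 and 95 were -0.26 and 0.29.

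The sets were close to each other across genes. Pairs within EB1, EB3 and EB5 correlated at Pearson r = 0.9983 to 0.9986, EB7 with EB9 at 0.9984, and pairs across the sets at 0.9966 to 0.9975. Pairs of an embryoid body and an ESC array correlated at 0.973 to 0.977 for EB1, EB3 and EB5 and at 0.968 to 0.973 for EB7 and EB9. Array medians of all 9 arrays lay between 4.01 and 4.09, and the level of the 3′ over the 5′ control probe set of actin, a sign of RNA integrity, lay between 0.55 and 0.72, with no separation of the sets.

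Embryonic globins were lower in EB7 and EB9. Hbb-bh1, the beta-like globin of primitive red cells, had levels of 12.55, 12.43 and 12.52 on EB1, EB3 and EB5 and 10.59 and 10.62 on EB7 and EB9. The set means of 12.50 ± 0.06 (SD, n = 3) and 10.61 ± 0.03 (n = 2) differed by -1.89, a 3.71-fold gap. All 5 embryoid body arrays stood far above the ESC mean of 3.9, so the globin was present in both sets and differed in level. Hba-x, the embryonic alpha-like globin, had levels of 10.80, 10.99 and 10.92 against 8.85 and 9.20, a difference of -1.88. Hbb-y, the other embryonic beta-like globin, had 11.84, 12.16 and 12.14 against 10.52 and 10.76, a difference of -1.41. All 3 probe sets of Hbb-bh1 were lower, by -2.10 to -1.89, and all 3 of Hbb-y, by -1.55 to -1.40. Both genes were read from probe sets of a type that the study discarded because it may cross-hybridize to other genes. Their differences may therefore not be independent of each other. The probe set used for the adult alpha globin Hba-a1 stayed between 3.27 and 3.32 on all 5 arrays, at its ESC level, so it gave no level to compare. Probe sets paired with several gene symbols were not used.

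**Figure D1:**
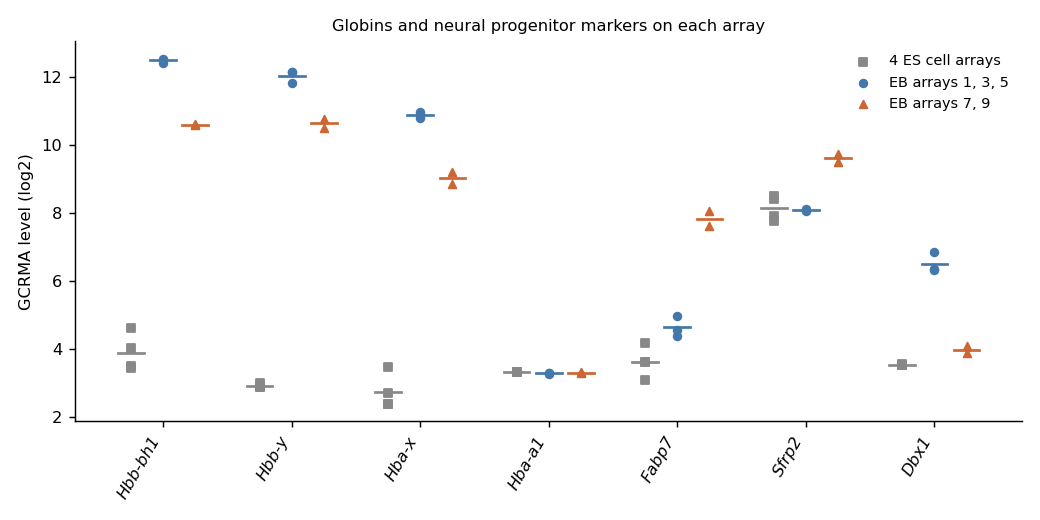
Levels (log2 GCRMA value, vertical axis) of 4 globins and 3 neural progenitor genes on each array, with squares for the 4 ESC arrays, circles for EB1, EB3 and EB5, triangles for EB7 and EB9, and a line at each mean. The 3 embryonic globins and Dbx1 are lower and Fabp7 and Sfrp2 higher on EB7 and EB9. The Hba-a1 probe set does not leave its ESC level and gives no level to compare.

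The plot of globins and neural markers by array shows that the arrays of a set lay close together beside the gap between sets. The promoters of Hba-x and Hbb-y are given because these globins lay on the same side. They are the 250 bases before the transcription start in RefSeq on GRCm38.p6, at chr11:32276350-32276599, plus strand, for Hba-x and at chr7:103853208-103853457, minus strand, for Hbb-y. The capitals mark GATAA, the core letters known to be bound by GATA factors, and CCACCC, those known to be bound by Klf1.
Hba-x: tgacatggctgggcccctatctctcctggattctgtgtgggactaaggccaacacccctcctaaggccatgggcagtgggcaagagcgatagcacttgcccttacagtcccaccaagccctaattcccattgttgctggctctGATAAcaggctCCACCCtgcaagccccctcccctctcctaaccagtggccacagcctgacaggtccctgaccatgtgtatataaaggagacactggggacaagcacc
Hbb-y: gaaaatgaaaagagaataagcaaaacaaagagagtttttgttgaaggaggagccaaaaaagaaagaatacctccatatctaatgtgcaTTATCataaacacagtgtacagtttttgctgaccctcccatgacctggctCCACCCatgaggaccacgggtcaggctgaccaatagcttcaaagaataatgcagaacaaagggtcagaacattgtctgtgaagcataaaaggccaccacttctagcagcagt
In Hba-x the letters GATAA lie 107 to 103 bases and CCACCC 96 to 91 bases before the start. In Hbb-y GATAA is on the opposite strand, read as TTATC 162 to 158 bases before the start, and CCACCC lies 112 to 107 bases before it. With both strands searched, GATAA was found in 22.6% of 32851 promoters of this length, CCACCC in 28.1% and both in 5%, so their presence is common and only describes these sequences.

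Across the 22 measured genes of the erythroid list, 10 (45.5%) were lower and 1 higher, with a median difference of -0.11. The hematopoietic regulators Tal1, with levels of 4.74, 5.46 and 4.88 against 4.12 and 4.14, and Lmo2, with 7.18, 7.44 and 7.44 against 6.98 and 6.87, were lower by -0.89 and -0.43. Slc4a1, the anion exchanger of the red cell membrane, was lower by -0.85 and the GATA cofactor Zfpm1 by -0.45. The erythroid regulators Gata1, between 3.91 and 4.16, and Klf1, between 3.04 and 3.09, had overlapping sets and stood at their ESC levels, so their probe sets gave no level to compare. A level of log2 4 or less is near the floor of the scale, and 9 of the 22 genes had their mean there. Over the genes with a mean of at least log2 4 the median of the list was -0.43. The 1 gene higher was Bcl11a, a repressor of embryonic globins that is also a neural gene, at 5.62, 5.65 and 5.65 against 7.32 and 6.79, a difference of 1.42. Its 7 probe sets gave differences from -0.001 to 1.42, and only 1 had a mean of at least log2 5. With the mean over probe sets the difference was 0.41.

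Genes of later blood cells had a median difference near 0. Of the 24 progenitor, myeloid and platelet genes, 4 (16.7%) were lower and 2 (8.33%) higher, at a median of 0.00, and 11 had a mean under log2 4. The leukocyte gene Ptprc stayed between 2.45 and 2.52, the macrophage receptor Csf1r between 6.07 and 6.14 with its ESC level at 6.1, and the sets overlapped for the platelet chemokine Pf4. Kit, the stem cell factor receptor, was lower by -0.24 and the progenitor marker Cd34 by -0.88, with EB5 at 4.45 and the other embryoid body arrays at 3.32 or less.

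Some endothelial genes were lower and most had overlapping sets. Of 22, 8 (36.4%) were lower, 1 was higher and 13 overlapped, with a median difference of -0.21. Plvap, which forms the diaphragms of endothelial pores, had levels of 7.20, 7.36 and 7.34 against 6.22 and 6.22, a difference of -1.08. Ramp2, a coreceptor for adrenomedullin, was lower by -0.83, Sox18 by -0.58 and the junction cadherin Cdh5 by -0.48. The ESC differences of Plvap and Ramp2 were -0.46 and -0.56. Etv2, a factor at the origin of both blood and endothelium, was near the floor, at 3.15, 3.54 and 2.82 against 2.53 and 2.54. The sets overlapped for Kdr and Flt1, the vascular growth factor receptors. The 1 gene higher was Fli1, by 0.64, with EB1 at 5.66 and the other 4 arrays between 6.51 and 6.89.

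Neural progenitor genes were mostly higher in EB7 and EB9. Fabp7, the fatty acid binding protein of radial glia, had levels of 4.98, 4.38 and 4.56 on EB1, EB3 and EB5 and 8.07 and 7.62 on EB7 and EB9, which was the largest difference of any named gene at 3.20, or 9.22-fold. In ESCs its mean level was 3.63, so EB1, EB3 and EB5 stood closer to ESCs than to EB7 and EB9. Sfrp2, a secreted Wnt-binding protein of the neural tube, had 8.07, 8.12 and 8.08 against 9.74 and 9.51, a difference of 1.54. The POU factor Pou3f3 had 7.14, 7.27 and 7.27 against 8.52 and 8.97 (difference 1.52), and Zic1, a dorsal neural factor, 7.18, 7.31 and 7.51 against 8.41 and 8.48 (difference 1.11). For each of these 4 genes both arrays of EB7 and EB9 lay above all of EB1, EB3 and EB5 by more than the range within either set.

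The direction was shared by 15 of 28 genes of the list (53.6%, beside 17.3% of all genes), and 2 were lower. Smaller differences were those of Sox1 (0.74) and the intermediate filament Nes (0.70), both marks of the neuroepithelium, Gli3 (0.51), Ncam1 (0.47) and Pax6 (0.39). The ESC differences were 0.92 for Zic1, 0.67 for Ncam1 and 1.05 for Pax6. That of Zic1 came from ESC array 6 alone, near the floor at 2.68, with the other ESC arrays between 4.49 and 4.51. Sox2, shared by ESCs and neural progenitors, had overlapping sets, at 10.36, 10.49 and 10.42 against 10.47 and 10.21, and so had Sox3 and Rfx4. The clear exception was Dbx1, a homeobox factor of progenitors in the middle of the neural tube, at 6.35, 6.33 and 6.87 against 4.09 and 3.89, the most negative difference of any named gene at -2.53, or 5.77-fold. On EB7 and EB9 Dbx1 was within 0.6 of its ESC mean of 3.54. The 5 marker genes named for these sets thus kept the stated directions, with Hbb-bh1, Hba-x and Dbx1 lower and Fabp7 and Sfrp2 higher, and since the sets were chosen from these values that is no independent result.

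Most neuronal genes were higher. Of 27, 19 (70.4%) were higher and 1 lower, with a median difference of 0.21, and 13 had a mean under log2 4. The difference was under 0.1 for 4 of the 19. Without EB9 the median was 0.094, and over genes with a mean of at least log2 4 it was 0.56. Nefm, the middle subunit of neurofilaments, had levels of 4.09, 3.68 and 4.12 against 6.71 and 6.26, a difference of 2.53. Gap43, a growth cone protein, had 5.39, 5.54 and 5.74 against 7.11 and 7.21 (difference 1.60), and Tubb3, the tubulin of young neurons, 6.48, 6.71 and 6.61 against 8.01 and 7.67 (difference 1.24). The ESC difference was 1.40 for Gap43 and 0.18 for Tubb3. The neuronal RNA-binding protein Elavl4 had 2.56, 3.22 and 3.14, near the floor, against 5.18 and 4.33. Nefm, Tubb3, Nefl and Crmp1 did not mark embryoid bodies as such, since their ESC mean levels of 5.85, 6.75, 10.66 and 8.9 were above those of EB1, EB3 and EB5. The motor neuron factor Isl1, at 7.71, 7.87 and 7.98 against 8.51 and 8.36, was on the contrary near the floor in ESCs at 2.8. Dcx, Mapt, Syt1 and Map2, genes of maturing neurons, stayed between 2.60 and 4.6 on all 5 arrays, with Dcx higher by 0.25. Stmn2 was lower, by -0.23.

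**Figure D2:**
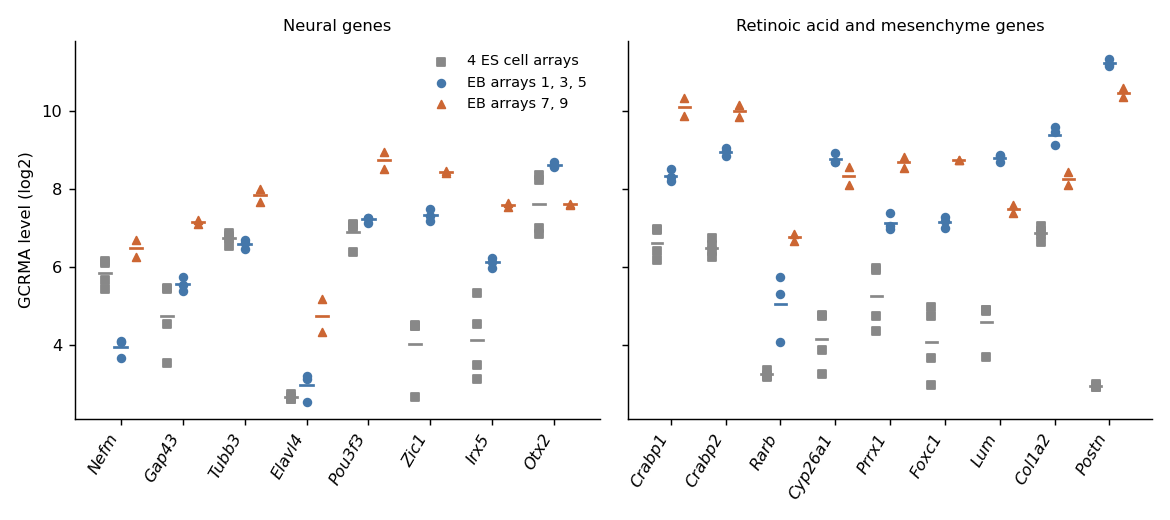
Levels (log2 GCRMA value, vertical axis) of 8 neural genes, at left, and 9 retinoic acid and mesenchyme genes, at right, with squares for the 4 ESC arrays, circles for EB1, EB3 and EB5, triangles for EB7 and EB9, and a line at each mean. All neural genes shown except Otx2 are higher on EB7 and EB9, as are Crabp1, Crabp2, Rarb, Prrx1 and Foxc1, while Cyp26a1, Lum, Col1a2 and Postn are lower.

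Of 29 genes of regional identity along the neural tube, 9 (31%) were higher, 3 lower and 17 overlapped between the sets, with a median difference of 0.04. Otx2, a factor of the forebrain and midbrain and of the epiblast, had levels of 8.71, 8.61 and 8.57 against 7.60 and 7.62, a difference of -1.02, but its ESC difference was -1.38, and with that subtracted it was 0.36 higher. The forebrain factor Hesx1 was lower by -0.29. The Iroquois factors Irx5, at 6.15, 6.25 and 5.99 against 7.54 and 7.64, and Irx3, at 7.26, 7.66 and 7.78 against 8.47 and 8.31, were higher by 1.46 and 0.82. En2, of the midbrain and hindbrain boundary, was higher by 0.76 and the hindbrain factor Egr2 by 0.42. Nr2f1, an orphan nuclear receptor with a role in neural patterning, is not on this list and was named for its large rise. It had 9.09, 9.36 and 9.44 against 10.88 and 10.81, a difference of 1.55. A mean under log2 4 was found for 16 of the 29, among them Six3, Rax, Emx2, Lmx1a and En1, so for most of this list the arrays gave no level to compare. The 9 include Six3, En1, Pax5, Dbx2 and Dlx2, all near the floor and higher by 0.20 or less.

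Most Hox genes had overlapping sets, and the largest differences were in anterior paralogue groups. Hoxa2 had levels of 3.13, 3.61 and 3.54 against 4.89 and 4.32 (difference 1.18), Hoxb2 3.61, 4.20 and 4.01 against 4.95 and 4.85 (difference 0.96), and Hoxb3 7.42, 7.51 and 7.58 against 8.49 and 8.41 (difference 0.94). Of the 10 genes in paralogue groups 1 to 4, a subset formed after the values were seen, 6 were higher and none lower, with a median difference of 0.20. Of the 23 in groups 5 to 13, 5 were higher and 1 lower with a median difference of 0.02, and the gene lower was Hoxa5, by -0.46. Over all 33 Hox genes 11 (33.3%, beside 17.3% of all genes) were higher and 18 had a mean under log2 4. Hoxa2 and Hoxb2 were low as well, with no probe set at a mean of log2 5. On EB1, EB3 and EB5 Hoxa2 was near its ESC mean of 3.55. Whether the contrast between paralogue groups comes from genes near the floor was not tested.

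Genes bound to the retinoic acid pathway were among those with the largest differences. Crabp1, a cytoplasmic carrier of retinoic acid, had levels of 8.31, 8.53 and 8.20 against 10.34 and 9.87, a difference of 1.75, and the second carrier Crabp2 had 8.86, 9.06 and 8.98 against 10.17 and 9.84, a difference of 1.04. The receptor Rarb, itself a known target of the acid, had 5.32, 4.07 and 5.76 against 6.67 and 6.86, a difference of 1.72, with EB3 well below the other arrays of its set. The Hox cofactors Meis1 and Meis2 were higher by 1.09 and 0.85. Not every target followed, for Cyp26a1, the enzyme that breaks down retinoic acid, was lower, at 8.71, 8.92 and 8.69 against 8.58 and 8.10. Of 13 genes 6 were higher and 1 lower, and the median difference was 0.04, since the synthesizing enzymes Aldh1a2 and Aldh1a3 and the genes Stra6, Stra8, Dhrs3 and Cyp26b1 had overlapping sets. Over the genes with a mean of at least log2 4 the median was 0.85, and with the ESC difference subtracted it was -0.00084.

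The promoters of Rarb and Cyp26a1 are shown because both are known targets and lay on opposite sides. They are the 250 bases before the start in RefSeq on GRCm38.p6, at chr14:16575477-16575726, minus strand, for Rarb and at chr19:37697558-37697807, plus strand, for Cyp26a1. The capitals mark the letters that match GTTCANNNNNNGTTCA, a direct repeat of the kind bound by retinoic acid receptors, with N for any base.
Rarb: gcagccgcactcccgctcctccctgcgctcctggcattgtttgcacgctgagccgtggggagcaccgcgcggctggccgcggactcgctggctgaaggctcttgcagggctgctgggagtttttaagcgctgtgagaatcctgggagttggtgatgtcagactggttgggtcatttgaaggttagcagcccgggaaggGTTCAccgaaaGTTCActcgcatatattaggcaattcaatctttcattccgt
Cyp26a1: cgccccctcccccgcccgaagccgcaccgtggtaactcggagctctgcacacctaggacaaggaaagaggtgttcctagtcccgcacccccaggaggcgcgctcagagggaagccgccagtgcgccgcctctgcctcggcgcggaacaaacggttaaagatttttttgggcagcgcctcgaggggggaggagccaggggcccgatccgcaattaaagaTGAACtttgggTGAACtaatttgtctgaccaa
The match lies 52 to 37 bases before the start of Rarb and, on the opposite strand, 32 to 17 bases before that of Cyp26a1. With both strands searched it was found in 22 of 32851 promoters, or 0.067%. Both genes hold these letters, and their differences between the sets were 1.72 and -0.44.

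Mesenchyme genes divided into a group higher and a group lower rather than moving together. Of 29 genes 12 (41.4%) were higher and 7 (24.1%) lower, with a median difference of 0.07. The homeobox factor Prrx1, of limb and head mesenchyme, had levels of 7.38, 6.98 and 7.07 against 8.83 and 8.55, a difference of 1.54, and its relative Prrx2 was higher by 0.69. Twist1 was higher by 0.58, the mesenchymal cadherin Cdh11 by 0.71, at 10.92, 10.98 and 10.96 against 11.67 and 11.67, and the matrix protein Tgfbi by 0.77. The ESC differences of these genes were on the same side, at 1.40 for Prrx1, 0.87 for Prrx2, 1.04 for Cdh11 and 0.67 for Tgfbi. On the other side, the proteoglycan Lum had 8.87, 8.71 and 8.85 against 7.39 and 7.60, a difference of -1.31. Col1a2, a chain of type I collagen, had 9.46, 9.14 and 9.61 against 8.12 and 8.43 (difference -1.13), and Postn 11.16, 11.21 and 11.35 against 10.38 and 10.59 (difference -0.76).

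Among subsets formed after the values were seen, 4 of 7 mesenchyme transcription factors were higher and none lower, with a median difference of 0.38, and of 8 fibrillar and type VI collagens 2 were higher and 4 lower, with a median of -0.07. The collagens did not lie on one side: Col1a1 was lower by only -0.13 where Col1a2 was lower by -1.13, and Col3a1 was higher by 0.31 beside an ESC difference of 2.51. The sets overlapped for the receptors Pdgfra and Pdgfrb. The ESC arrays also differed here, for the median of the 29 genes was 0.30 higher on ESC arrays 8 and 10 than on 2 and 6, beside 0.01 over all genes, and with that difference subtracted gene by gene the median of the list between embryoid body sets was -0.28 in place of 0.07. Without EB3 it was 0.11.

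**Figure D3:**
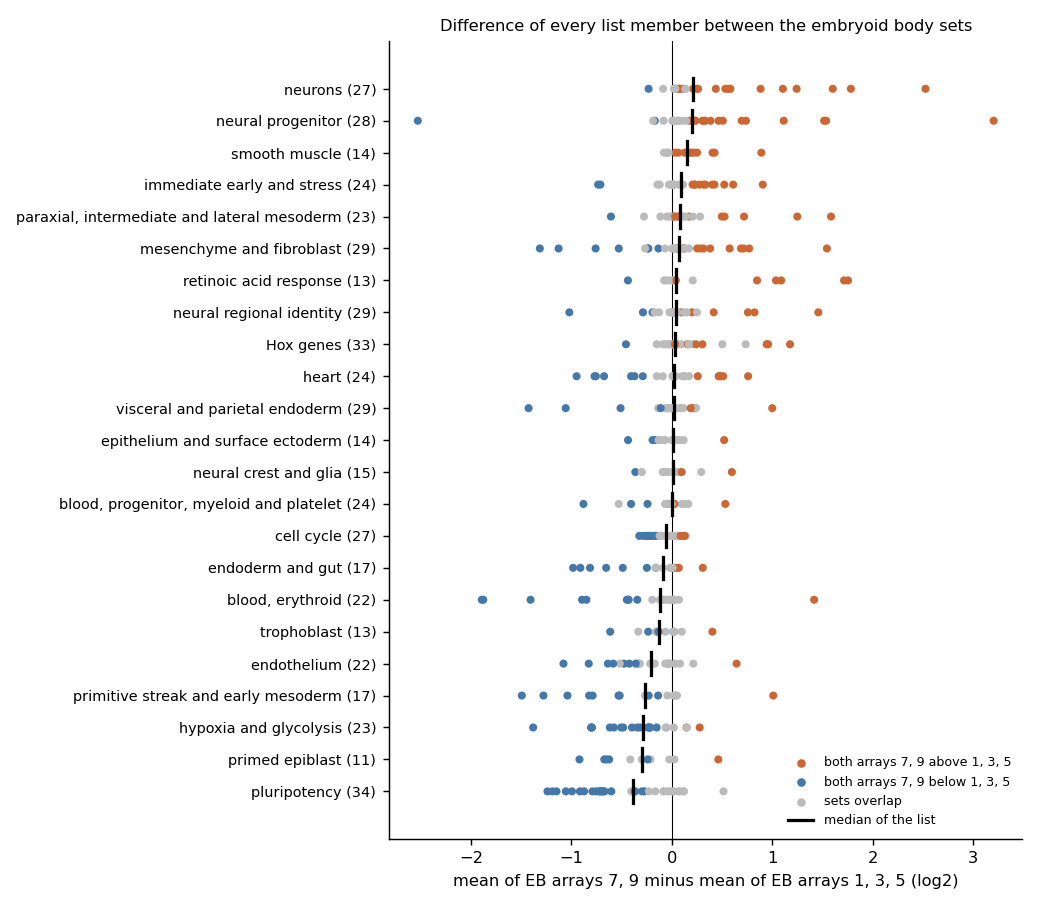
Difference of every measured member of 23 gene lists between EB7 and EB9 and EB1, EB3 and EB5 (log2, horizontal axis), with the number of genes in brackets. Orange points are genes for which both EB7 and EB9 lie above the other set, blue points genes for which both lie below, grey points genes whose sets overlap, and the black bar is the median of the list, from -0.39 for pluripotency to 0.21 for neurons.

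In the primitive streak list 10 of 17 genes (58.8%) were lower and 1 higher, at a median of -0.26 that was -0.14 without EB1, as in the plot of all list members. Mixl1, a homeobox factor of the streak, had levels of 7.40, 7.53 and 7.14 against 5.86 and 5.86 (difference -1.49), and the apelin receptor Aplnr, of early mesoderm, 9.74, 9.81 and 9.53 against 8.38 and 8.45 (difference -1.28). The other Aplnr probe set was lower by only -0.25. Lhx1 was lower by -1.04, Fgf8 by -0.79 and Eomes by -0.53, the last with an ESC difference of -0.43. The 1 streak-list gene higher was the growth factor Pdgfc, by 1.01, a gene that is also made by later tissues, with an ESC difference of 0.82. In the list of paraxial, intermediate and lateral mesoderm 9 of 23 (39.1%) were higher, 1 lower and 13 overlapping, at a median of 0.08 that was 0.036 without EB9. Foxc1, at 7.01, 7.20 and 7.29 against 8.74 and 8.76, and Foxc2, at 5.82, 6.51 and 5.91 against 7.20 and 7.46, forkhead factors of paraxial mesoderm, were higher by 1.59 and 1.25. With the ESC difference subtracted Foxc1 kept 0.056 and Foxc2 1.38. Eya1, Tbx18 and Osr1 were higher by 0.72, 0.52 and 0.50, while Foxf1, of lateral mesoderm, was lower by -0.61. Somite genes such as Tbx6, Meox1 and Msgn1 were near the floor on all 5 arrays.

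Heart genes had members on both sides, 6 (25%) higher and 7 (29.2%) lower of 24, with a median difference of 0.03. Myl2, the myosin light chain of ventricular muscle, had levels of 9.67, 9.75 and 9.91 against 8.76 and 8.90 (difference -0.95), and Myl3, of ventricular and slow muscle, was lower by -0.67. Actn2, Gata4, Tnnc1 and Myl4 were higher by 0.76, 0.51, 0.49 and 0.47. The sets overlapped for the atrial light chain Myl7, for Actc1 and for Nkx2-5. Smooth muscle genes were mostly higher, with 10 of 14 (71.4%) higher and none lower at a median of 0.15, among them Actg2 (0.89), Cnn1 (0.43) and Tagln, at 12.90, 12.98 and 12.86 against 13.30 and 13.33. With the ESC difference subtracted the list median was 0.043 and Tagln was -0.15, and the median was 0.092 without EB1.

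Several endodermal regulators were lower. Foxa1 had levels of 9.21, 9.31 and 9.13 against 8.07 and 8.54 (difference -0.91), Foxa2 8.63, 8.71 and 8.62 against 8.0 and 8.0 (difference -0.65), and Shh, made by the notochord and gut as well as the floor plate, 10.95, 10.75 and 11.10 against 10.23 and 10.66 (difference -0.49). Gata6 had overlapping sets, at 8.25, 8.35 and 8.28 against 8.35 and 8.34. Of 17 endoderm and gut genes 7 (41.2%) were lower and 3 higher, with a median difference of -0.09 that was 0.020 with the ESC difference subtracted, and -0.14 to -0.031 with an array left out. In the visceral and parietal endoderm list 4 of 29 (13.8%, beside 9.79% of all genes) were lower and 6 (20.7%, beside 17.3%) higher. Both shares were near those over all genes, so the members named next describe single genes and not the list. The secreted retinol carrier Rbp4 had 5.68, 6.53 and 6.66 against 4.75 and 4.98 (difference -1.43) and alpha-fetoprotein, Afp, 6.97, 7.39 and 7.56 against 6.70 and 5.79 (difference -1.06), while the basement membrane genes Col4a1, Col4a2 and Sparc were higher by 0.23, 0.23 and 0.19, with ESC differences of 0.72 and 0.74 for both collagens. For Afp the direction depended on the probe set, since its plain probe set gave a difference of 0.054. Liver-type genes such as Alb, Apoa1 and Fgb had overlapping sets and stood at their ESC levels.

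Residual levels of most pluripotency genes were lower in EB7 and EB9. Pou5f1, the POU factor that maintains pluripotency, had levels of 9.54, 9.71 and 9.36 on EB1, EB3 and EB5, 8.53 and 8.17 on EB7 and EB9, and a mean of 12.23 in ESCs. The difference between sets was -1.19, or 2.28-fold, with no overlap, and all 5 arrays lay below the ESCs. Nanog had 7.65, 7.82 and 7.5 against 6.68 and 6.34 (difference -1.15, ESC mean 10.54). Tdgf1, a coreceptor for Nodal, had 10.59, 10.78 and 10.47 against 9.58 and 9.17 (difference -1.24), and Dppa4 8.07, 8.21 and 7.90 against 7.46 and 6.56 (difference -1.05).

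Of 34 pluripotency genes 19 (55.9%, beside 9.79% of all genes) were lower and 0 higher, at a median of -0.39, which was -0.65 without EB7. Among the 24 of them with a level at least 2 higher in ESCs than in embryoid bodies, 17 were lower and 0 higher, and their median stood 3.39 below ESCs on EB1, EB3 and EB5 and 3.99 below on EB7 and EB9. Zfp42, lost early in differentiation, had 5.54, 5.26 and 5.32 against 4.77 and 4.6 beside an ESC mean of 11.6. Not all members did so: Gdf3, Lefty1, Nr0b1 and Dppa3 overlapped between sets, and Klf4 had the highest difference of the list, 0.51, with overlapping sets. Esrrb had 8.42, 8.36 and 8.40 against 8.21 and 8.42 beside an ESC mean of 8.5, so its probe set did not separate ESCs from embryoid bodies. The plot of pluripotency genes against ESCs shows this as a shift of most points under the line of equal values, with Tdgf1 at -1.24 the most negative. In the primed epiblast list 5 of 11 genes were lower, 1 higher and 5 overlapping, at a median of -0.30. Pim2 was lower by -0.92, Dnmt3b by -0.67, Fgf5 by -0.65 and Pou3f1 by -0.62, and the ESC differences of Fgf5 and Pou3f1, at -0.64 and -0.59, were nearly as large.

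**Figure D4:**
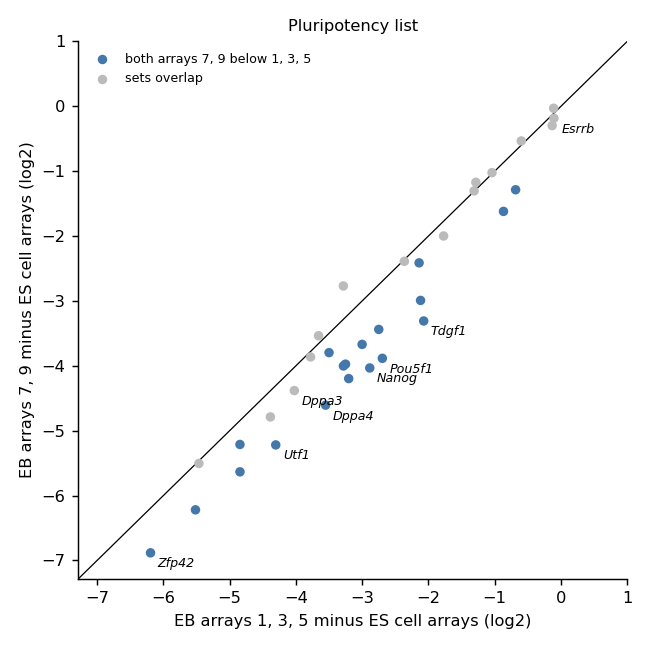
Each point is 1 of 34 pluripotency genes, placed by its mean level on EB1, EB3 and EB5 minus its mean on 4 ESC arrays (log2, horizontal axis) and by the same for EB7 and EB9 (log2, vertical axis), with the line of equal values. The 19 blue points, genes lower on both EB7 and EB9, lie under the line, and no gene is higher on both.

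The extent of differentiation was described over genes that separate ESCs from embryoid bodies. At a difference of at least 2, with no overlap between sample types, 170 genes were higher in ESCs and 385 in embryoid bodies. Over the first the median difference between sets was -0.29, with 88 (51.8%) lower and 9 higher in EB7 and EB9. Over the second it was 0.24, with 221 (57.4%) higher and 61 (15.8%) lower. On each array the change from ESCs was taken per gene as a percentage of the average of both sets, and its median over genes is given. The loss of ESC genes was 95.2%, 91.3% and 97.6% on EB1, EB3 and EB5 and 103% and 106% on EB7 and EB9, and the gain of embryoid body genes was 94.5%, 98.0% and 95.1% against 105% and 104%. EB7 and EB9 were thus farther from ESCs on both counts. The genes were selected with the same 5 arrays, and on the ESC arrays themselves 8 and 10 differed from 2 and 6 by medians of -0.18 and 0.18 over the same genes, on the same side as in the embryoid bodies and smaller.

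Farther from ESCs did not hold for every tissue. Genes that are high in embryoid bodies and low in ESCs, such as the embryonic globins, Aplnr, Foxa1, Foxa2, Lum, Postn and Myl2, were lower in EB7 and EB9, and Fabp7, Meis2, Irx3, Foxc1, Cdh11 and Isl1 were higher. The lists with the most negative medians were pluripotency, primed epiblast, glycolysis, streak and endothelium, and those with the highest were neurons, neural progenitors and smooth muscle.

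Glycolytic and hypoxia-responsive genes had the highest share on one side of any list, with 17 of 23 (73.9%) lower and 2 higher at a median of -0.29. Pfkp, a phosphofructokinase, had levels of 7.04, 7.24 and 7.26 against 6.02 and 5.58, a difference of -1.38. Bnip3 and Pdk1, known hypoxia targets, were both lower by -0.80, the glucose transporter Slc2a1 had 13.33, 13.38 and 13.33 against 12.82 and 12.65, and Ldha was lower by -0.34. The hypoxia target Adm was higher, by 0.28, and Vegfa lower by -0.15. The median ESC difference of this list was -0.13, on the same side, and with ESC differences subtracted gene by gene the list median was -0.12, Pfkp -0.66, Pdk1 -0.46 and Bnip3 -0.24, while Aldoc, lower by -0.80, was 0.36 higher. Of 27 cell cycle genes 9 (33.3%) were lower, 3 higher and 15 overlapping, with Plk1 the most negative at -0.32. The ESC difference of Plk1 was -0.26. The list median of -0.06 had no settled sign, at -0.16 without EB7 and 0.011 without EB9. The median ESC difference of the list was -0.08, and with ESC differences subtracted the list median was 0.018. Immediate early and stress genes were higher for 11 of 24 (45.8%), among them Fos, at 10.34, 10.10 and 10.20 against 11.07 and 11.17, and Egr1, by 0.61, while the amino acid response genes Trib3 and Asns were lower by -0.73 and -0.71. On the ESC arrays these 2 genes differed more, by -1.34 and -1.09, so that subtraction left 0.60 and 0.38.

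The ESC arrays with the corresponding high numbers, 8 and 10, also differed from 2 and 6, by at least 1 with no overlap for 96 genes (0.528%) higher and 101 (0.555%) lower. The differences within embryoid bodies and within ESCs, which share no array, correlated across genes at Pearson r = 0.203 and Spearman rho = 0.157 over 18193 genes, which are not independent replicates. Of the 48 genes higher by at least 1 in EB7 and EB9, 5 (10.4% of these and 5.21% of the 96) were so in ESC arrays 8 and 10: Col11a1, Emp1, Foxc1, Gap43 and Prrx1. Of the 41 lower, 6 (14.6% of these and 5.94% of the 101) were so in the ESCs: Car4, Irs4, Neat1, Otx2, Slc27a2 and Sycp3. These shares of 10.4% and 14.6% were above the 0.528% and 0.555% over all genes. Within the ESCs 35 of the 48 and 30 of the 41 differed by less than 0.5, among them Dbx1 (0.01), Crabp1 (-0.11), Hbb-bh1 (0.34), Hba-x (0.38) and Pou5f1 (-0.16). The share of all genes within 0.5 was not counted, so these counts do not show that such genes differed less in ESCs than others.

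**Figure D5:**
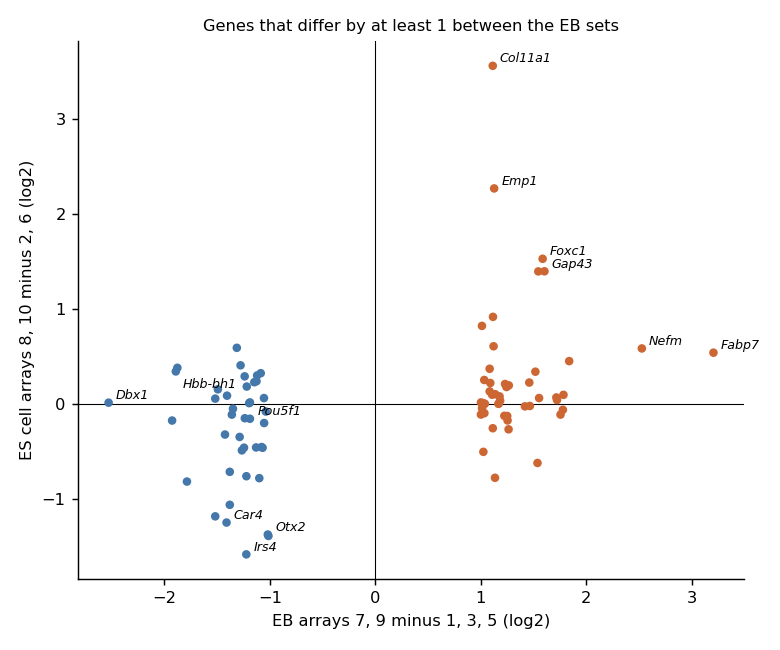
Each point is 1 of the 89 genes that differ by at least 1 between the embryoid body sets without overlap, placed by the difference EB7 and EB9 minus EB1, EB3 and EB5 (log2, horizontal axis) and by ESC arrays 8 and 10 minus 2 and 6 (log2, vertical axis). Orange points are higher and blue points lower in EB7 and EB9, and 35 of the 48 orange and 30 of the 41 blue points lie within 0.5 of 0 on the vertical axis, with Col11a1 and Emp1 highest at 3.56 and 2.27. The share of all genes within 0.5 was not counted.

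For Otx2 the ESC difference of -1.38 was more negative than the -1.02 between embryoid body sets, and for Foxc1, Gap43 and Prrx1 the 2 differences were close, at 1.53 beside 1.59, 1.40 beside 1.60 and 1.40 beside 1.54. For Irs4 and Sycp3 the ESC difference was also more negative, at -1.59 beside -1.22 and -1.39 beside -1.01. For Col11a1 and Emp1 it was higher, at 3.56 beside 1.11 and 2.27 beside 1.13. For Car4, Neat1 and Slc27a2 it was somewhat smaller, at -1.25 beside -1.41, -1.19 beside -1.52 and -1.06 beside -1.38. For all these genes a difference that goes with the array numbers cannot be told apart from a difference between embryoid bodies. That holds as well for genes above with a similar ESC difference, such as Cdh11. With EB7 left out, the number of genes lower by at least 1 was 66 in place of 41.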

How the data were processed

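The authors deposited GCRMA values of 9 Affymetrix mouse expression arrays as linear intensities from 2.14 to 37448, made from probe intensities by sequence-based background correction, normalization and summary per probe set. Whether all 9 arrays were normalized together is not given in the sources used here. The log2 of each intensity was taken with no further normalization, and 64 of 45101 probe sets, the controls, were left out. Of the 45037 others 34945 were paired with 1 gene symbol by the platform annotation, 932 with several and 9160 with none. Genes of probe sets with several symbols were not used. The number of arrays limits the precision. All columns belonged to a sample (0 without).

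The sets, the markers and the 23 gene lists (512 of 540 entries found on the array) were chosen with earlier results of these data known, and the study chose none of the lists. No test was run, since the split came from the same values. Named genes were the 5 markers, the 12 most positive and 12 most negative differences among genes without overlap that differed by at least 1 and had a mean of at least log2 5 in the higher set, and up to 4 members per list with the largest difference, 101 in all. Other genes named, and subsets of lists, were chosen after their values were seen. Of 26 named genes with several probe sets at log2 5 or more, 23 had the same sign in all. Promoters came from RefSeq (GRCm38.p6), and 4 of the 5 markers matched. Alternatives were quantile normalization, centring, the mean over probe sets, plain probe sets, a filter at log2 4, ESC differences subtracted, other differences behind a count, and each embryoid body array left out. Computation used Python 3.11.15, numpy 2.4.6 and pandas 2.3.3, and was tested on simulated data.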

Additional observations from a re-analysis of the deposited data

Results flagged for a closer look

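Within the 5 embryoid body arrays, 124 results were looked at for an array far from the others. The measure was the gap from that array to its nearest neighbour over the whole range, and 4 were flagged. Chance alone gives about 1 in 20, so 4 of 124 is no more than chance would give. That rate is only a rough guide, since many of these genes were chosen for a difference between the sets. Hoxa4, an anterior Hox gene, was at 4.65 (log2) on EB9 and between 3.16 and 3.29 on the other 4, so its difference between sets of 0.74 came from EB9 alone. The imprinted gene Peg10 was lowest on EB9, at 3.06, with the others between 3.9 and 4.14. The platelet gene Ppbp was highest on EB7, at 4.46, with the others between 3.50 and 3.74. The trophoblast list score, the median over its genes of the level minus the mean of all 5 arrays, was lowest on EB7, at -0.032, with the others between 0.012 and 0.015.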

How the results depend on the processing

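Quantile normalization or centring on array medians changed no direction among the named genes without overlap. The 48 genes higher and 41 lower by at least 1 became 25 and 29 with the mean over probe sets, 167 and 107 with the ESC difference subtracted, 306 and 249 at a difference of 0.5, and 2 and 1 at a difference of 2. Of the 167 and 107 genes, only 35 and 23 were among the 48 and 41. With each array left out in turn they ran from 41 to 66 and from 36 to 66. The erythroid median of -0.11 was -0.13 after quantile normalization, -0.14 after centring, -0.063 on plain probe sets, -0.43 over genes of log2 4 or more and -0.17 with the ESC difference subtracted, and -0.16 to -0.091 with an array left out. The neural progenitor median of 0.20 was 0.12 with the mean over probe sets, 0.12 on plain ones, 0.27 over log2 4 and 0.13 with the ESC difference subtracted (0.14 to 0.30 with an array left out). The neuron median of 0.21 was 0.087, 0.13 and 0.56 under the first 3 of these (0.094 to 0.25). The mesenchyme median of 0.07 was 0.030 after quantile normalization and -0.28 with the ESC difference subtracted (0.047 to 0.11). The pluripotency median of -0.39 was -0.69 over log2 4 and -0.61 with the ESC difference subtracted (-0.65 to -0.33). Over genes that differ by at least 1 between sample types the extent medians were -0.16 and 0.19 (main -0.29 and 0.24). With the ESC difference subtracted, the endoderm median became 0.020, the retinoic acid median -0.00084, Otx2 0.36, Aldoc 0.36, Asns 0.38, Ccnb2 0.18, Cldn7 0.69, Erbb3 0.63, Fgfr2 0.18, Krt7 -0.062, Lrp2 0.12, Ppbp -0.022, Tagln -0.15 and Trib3 0.60, each of the other sign than before. On plain probe sets Afp was 0.054, Aldoc 0.029 and Ttn 0.045, likewise of the other sign. The cause was not tested. That subtraction also adds the spread of 4 more arrays. No paired analysis was possible because EB and ESC arrays share no replicate numbers. With 2 and 3 arrays, 34.5% of genes under log2 4 and sets chosen from the values, small differences and low genes carry little weight.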

Other observations

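Among the 41 genes lower by at least 1, 4 known to respond to interferon are given, picked with no list of such genes and not as a full count. Bst2 was named by the rule for the most negative differences, which also uses the values, and the others after their values were seen. Gbp2b had log2 levels of 6.12, 6.4 and 5.84 on EB1, EB3 and EB5 against 5.28 and 4.39, and H2-K1 8.03, 7.96 and 7.75 against 7.09 and 6.30. Ifitm1 had 10.42, 10.46 and 10.30 against 9.26 and 9.27, and Bst2 6.35, 6.78 and 6.14 against 4.97 and 4.31. All 4 had a higher mean level in ESCs, from 8.13 for Bst2 to 12.01 for Ifitm1. Their ESC differences were on the same side, at -0.35, -0.76, -0.46 and -0.82 in the order of these levels. Phlda2, an imprinted gene that restrains placental growth, had 8.82, 9.02 and 8.63 against 6.70 and 7.09, a difference of -1.93.

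Some genes outside the lists were higher and are also named after their values were seen. The cartilage collagens Col9a1, at 8.27, 8.62 and 8.50 against 9.51 and 9.86, and Col11a1, at 8.82, 8.99 and 8.70 against 9.98 and 9.91, were higher by 1.22 and 1.11, the second also between ESC arrays. Tnc, the matrix protein tenascin C, had 7.55, 8.11 and 7.55 against 8.90 and 8.84, and Ptn, the growth factor pleiotrophin, 10.43, 10.64 and 10.47 against 11.58 and 11.46. Both had means under log2 5 in ESCs, at 3.67 and 4.82. Other matrix genes, such as Lum and Col1a2, were lower.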
